A study of Homo sapiens with 6 samples.

Results

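The genes described here encode the proteasome: the subunits of its core, its regulatory cap, its activators and inhibitor, and the chaperones that assemble them. Members were the rows of the count table whose symbol starts with PSM, followed by one of the letters A to G and a number. The rule found 46 of 26699 rows, and all 46 passed the filter on low counts, among 15562 genes tested. PSMA8, a testis form of an alpha subunit, and PSMB11, the thymus form of a catalytic subunit, were not analysed here. The members were the 7 alpha and 7 beta subunits of the constitutive core, 3 immunoproteasome subunits, 6 ATPases and 11 other subunits of the cap, 3 cap chaperones, 4 activators, 1 inhibitor and 4 core chaperones.

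The proteasome degrades proteins tagged with ubiquitin. Its core is a barrel of stacked rings: the alpha subunits form the gates at both ends, and the beta subunits form the inner rings that hold the proteolytic sites. A cap binds the tagged protein, removes the ubiquitin, unfolds the chain with a ring of ATPases and feeds it into the core. Interferon-gamma induces catalytic beta subunits that replace the constitutive ones in newly built cores, giving the immunoproteasome, which favours peptides that bind MHC class I. Cancer cells depend on the proteasome to clear misfolded protein, and the beta subunit PSMB5 is the main target of the drug bortezomib.

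Poly(A) RNA of OVCA433, an established line of human ovarian cancer cells, was sequenced in 6 libraries. The labels gave them the genotypes OVSOGA1sinc and OVSOGA1si, with 3 replicates each, called sinc and si here; they neither expand these codes nor name the reagent, the dose or the time. SOGA1, the gene both codes carry, stood at 62.7 ± 2.60 CPM (counts scaled to the library size; SD, n = 3) in sinc and 24.3 ± 3.64 in si (log2 fold change -1.37, edgeR adjusted p = 0.000963), and its libraries did not overlap. Differences are given as si minus sinc throughout. No label says that the libraries came from separate cultures or on which day they were made. The p-values therefore measure only the spread between these libraries, which may be technical.

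Library totals ran from 33778707 to 44130601 counts. The 46 members took between 0.876% and 0.922% of the total in sinc and between 0.929% and 0.975% in si. Of 7 epithelial markers, 5 were in the table, summing to 4687 to 5069 CPM over the libraries. The 2 leukocyte markers in the table did not pass 0.267 CPM in sum, and the 3 endothelial markers summed to 11.1 to 12.8 CPM in sinc and 7.47 to 10.4 in si. Of 5 fibroblast markers, 3 were in the table, and their sum was 101 to 106 CPM in sinc and 126 to 139 in si. Nearly all of it was COL1A1, a collagen gene, which alone reached 138 CPM. Whether these shifts had a part in any result below was not tested, and in bulk RNA fewer cells of a kind and less RNA per cell cannot be told apart.

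Proteasome transcripts moved little between the groups, and not all in the same direction. Log2 fold changes were positive for 29 members and negative for 17, against 7879 and 7683 of all genes. Summed over the 46 members, the level was 8894 ± 305 CPM in sinc and 9563 ± 214 in si (SD, n = 3), without overlap. PSMA6, PSMB5, PSMC3, PSMD8 and PSMD9 rose in si and PSMC4 fell, at an adjusted p under 0.05 in edgeR's quasi-likelihood test, adjusted by the Benjamini-Hochberg method across the whole table. The 5 that rose were 10.9% of the members, against 4.14% of all genes. The 1 that fell was 2.17% of the members, against 6.00% of all genes. In either direction, 13.0% of the members and 10.1% of all genes passed. The 3 si libraries all lay above the 3 sinc libraries for 14 members (30.4%, against 18.1% of all genes) and all below them for 5 (10.9%, against 16.8%). The median log2 fold change was 0.091 over the members and 0.0058 over all genes tested. The calls rest on few genes, and no test of the members as a list was made.

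**Figure D1:**
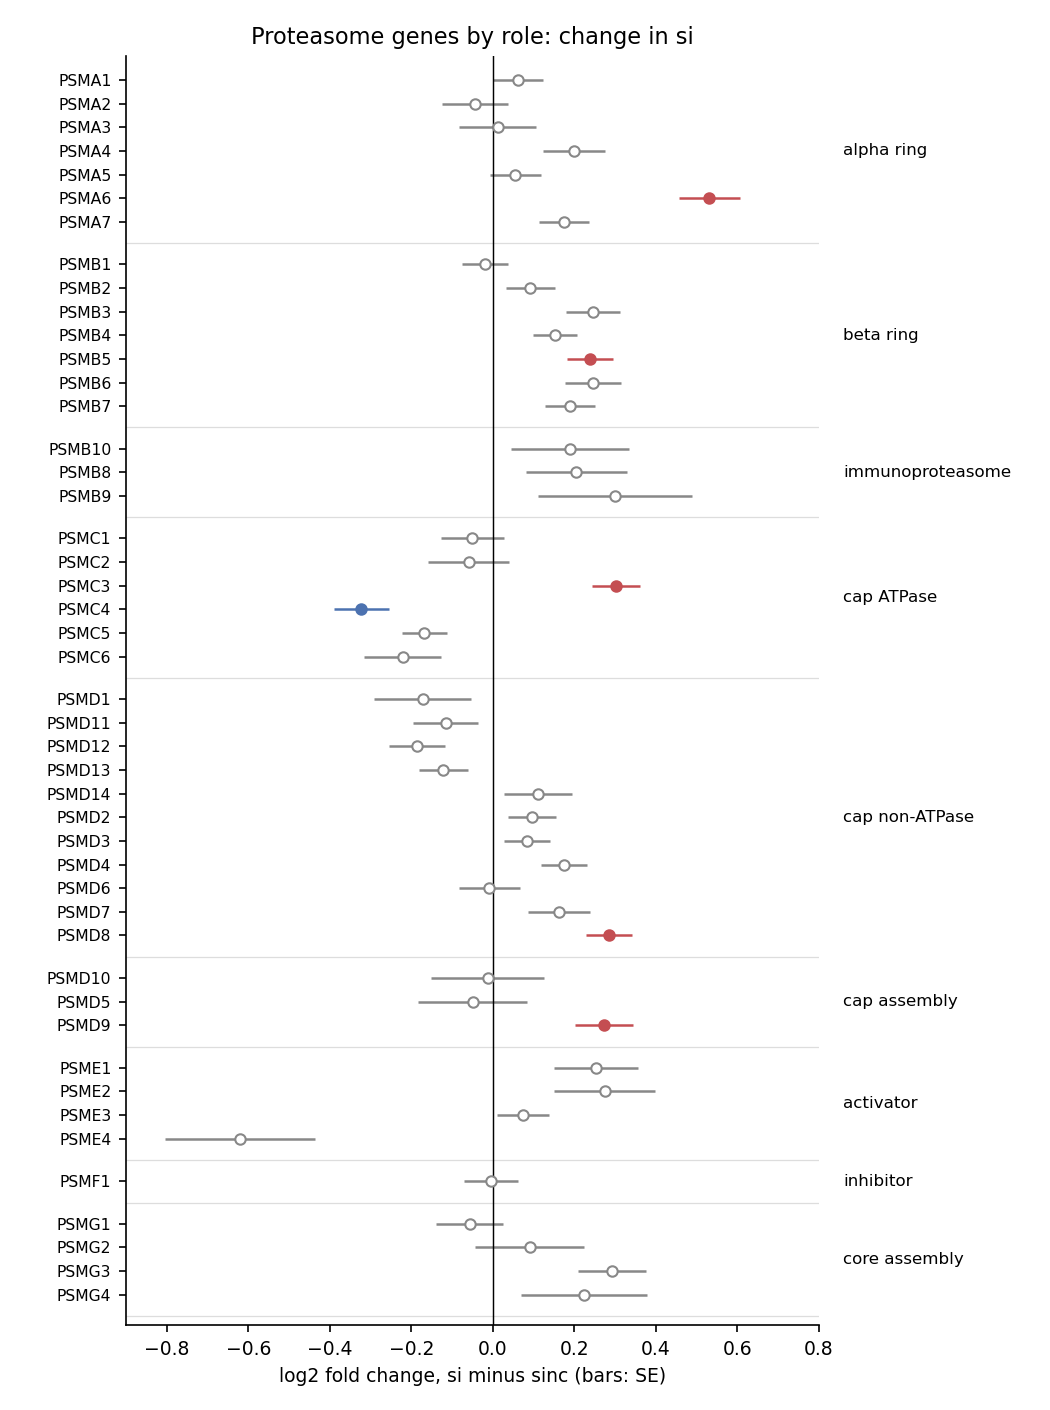
Log2 fold change of each of the 46 members, si minus sinc, with its standard error (bars), arranged by role. Filled points passed an adjusted p of 0.05 (red higher, blue lower): PSMA6 stands farthest to the right at 0.53, and PSME4, at -0.62, lies farthest to the left without passing.

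In the alpha ring, 1 of 7 subunits rose and none fell, beside 4.14% and 6.00% of all genes. That subunit was PSMA6 (ENSG00000100902; GENCODE 29, GRCh38, chr14:35278633-35317493, plus strand). PSMA6 read 147, 165 and 145 CPM in sinc replicates 1, 2 and 3. In si replicates 1, 2 and 3 it read 235, 215 and 210 CPM. Each si library lay above each sinc library, with a log2 fold change of 0.53 (SE 0.075, edgeR adjusted p = 0.00859). PSMA4 and PSMA7 also had no overlap between groups, at 0.20 and 0.17 on the log2 scale, but did not pass (edgeR adjusted p = 0.13 and 0.11). PSMA1, PSMA2, PSMA3 and PSMA5 lay between -0.044 and 0.061 with overlapping libraries.

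The PSMA6 count cannot be read alone, because another row of the table shares its exons. AL121594.3 (ENSG00000258790, chr14:35122549-35317474, plus strand) is a read-through gene that runs from KIAA0391, the catalytic subunit of mitochondrial RNase P, into PSMA6. Its annotated transcript has 15 exons, of which 6 are identical to 6 of the 7 exons of the principal PSMA6 transcript. The longest run the transcripts have in common is 835 bases, 81.1% of the PSMA6 transcript. One of those exons is shown to make this concrete: exon 5 of PSMA6 is exon 13 of the read-through (GENCODE 29, GRCh38, chr14:35312881-35313059, plus strand), so a read that falls inside these letters could be given to either row.
PSMA6 exon 5: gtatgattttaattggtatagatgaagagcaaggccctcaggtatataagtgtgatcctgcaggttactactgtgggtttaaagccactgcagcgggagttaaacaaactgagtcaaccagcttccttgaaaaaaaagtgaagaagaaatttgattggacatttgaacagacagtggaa

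The rows moved in opposite directions. AL121594.3 read 69.0, 83.9 and 77.2 CPM in the sinc libraries. It read 11.2, 19.9 and 45.2 CPM in the si libraries, all below sinc and spread over a wide range. Its log2 fold change was -1.59 (SE 0.43, edgeR adjusted p = 0.054). Without si replicate 3, the highest of the si libraries, it was -2.31 (edgeR adjusted p = 0.0053), and the row passed in 7 of 19 alternative settings. The read-through row held 33.5% ± 1.40 of the PSMA6 plus AL121594.3 sum in sinc and 10.2% ± 6.77 in si (SD, n = 3). The sum itself was 229 ± 17.7 CPM in sinc and 246 ± 9.89 CPM in si, with libraries that overlapped. With the whole counts of the exon-sharing rows added to each member before the fit, PSMA6 had a log2 fold change of 0.10 (edgeR adjusted p = 0.39), so its call ended. The read-through transcript is 3857 bases long, most of it outside PSMA6. Both sums may therefore hold reads that do not come from the shared exons. KIAA0391, which shares the other end of the read-through, rose from 36.5 ± 6.76 to 54.0 ± 6.26 CPM (log2 fold change 0.57, edgeR adjusted p = 0.044). How the authors divided reads between overlapping rows is not given in the sources used here, and whether transcripts or only their assignment differed was not tested. Without sinc replicate 1, PSMA6 kept a log2 fold change of 0.50 but not its call (edgeR adjusted p = 0.058).

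**Figure D2:**
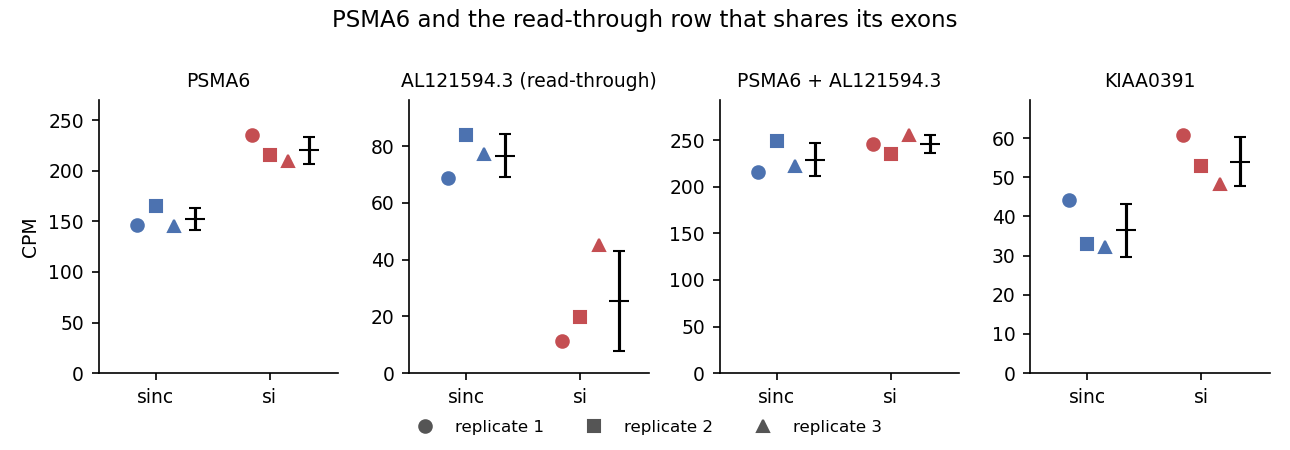
CPM per library for PSMA6, the read-through row AL121594.3, their sum, and KIAA0391; symbols mark the replicate number and bars the mean ± SD of 3 libraries. PSMA6 is higher and the read-through lower in every si library, while the sum (229 and 246 CPM) overlaps between the groups.

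In the beta ring, 6 of 7 fold changes were positive, and PSMB5 alone passed. PSMB5, which carries the chymotrypsin-like site, read 179, 191 and 175 CPM in sinc and 216, 211 and 215 CPM in si. The groups did not overlap, and the si libraries lay within a narrow range (log2 fold change 0.24, SE 0.057, edgeR adjusted p = 0.038). PSMB6, with the caspase-like site, read 129, 147 and 133 CPM in sinc and 165, 166 and 155 CPM in si. PSMB7, with the trypsin-like site, read 267, 282 and 260 CPM in sinc and 315, 317 and 291 CPM in si. Neither passed, with log2 fold changes of 0.24 and 0.19 (edgeR adjusted p = 0.061 and 0.087), although both had groups that did not overlap.

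The beta subunits without a proteolytic site were PSMB1, PSMB2, PSMB3 and PSMB4. PSMB3 and PSMB4 were higher in every si library (0.25 and 0.15 on the log2 scale, edgeR adjusted p = 0.055 and 0.11). PSMB1 and PSMB2 overlapped between groups at -0.020 and 0.092. Over the 14 constitutive core subunits the median log2 fold change was 0.16; 2 passed, both higher, beside 4.14% of all genes. In 8 of the 14 the si libraries lay all above sinc, and in none all below, beside 18.1% and 16.8% of all genes.

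**Figure D3:**
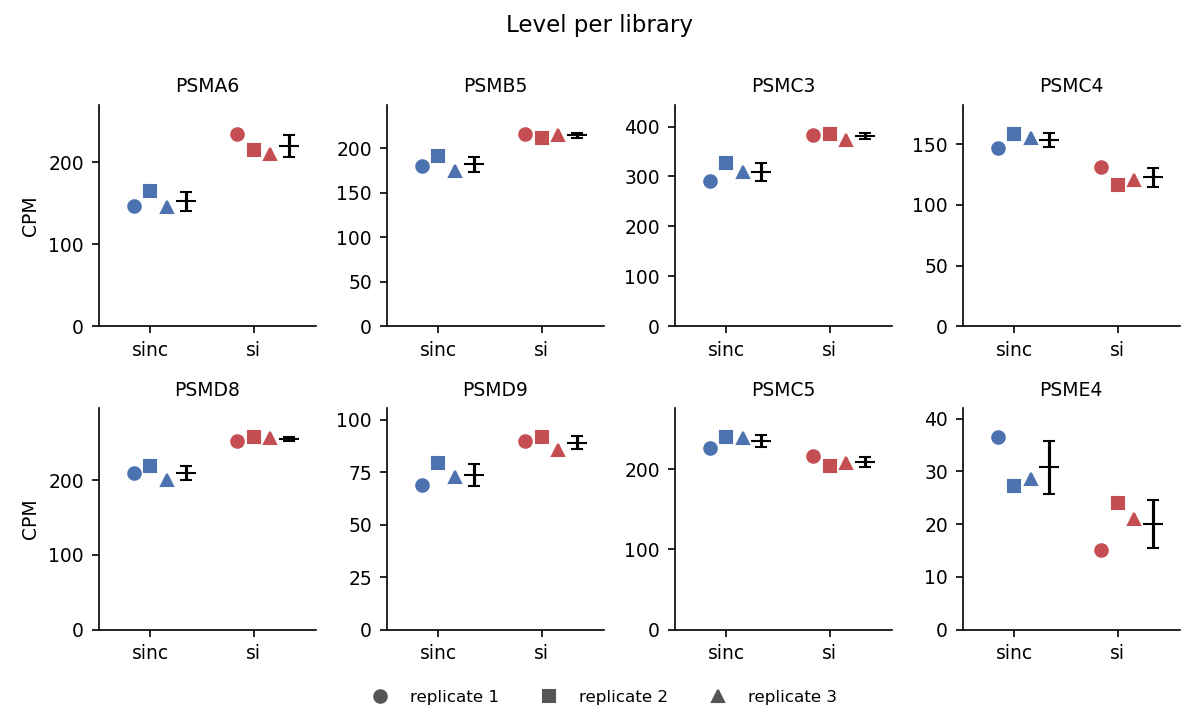
CPM per library for the 6 members that passed the test and for PSMC5 and PSME4, with symbols for the replicate number and bars for the mean ± SD of 3 libraries. Each axis starts at 0, so the shifts of PSMB5 (182 to 214 CPM) or PSMD8 (209 to 255 CPM) show as small against the level itself.

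The immunoproteasome subunits were expressed in every library, and none passed the test. PSMB8, which replaces PSMB5, read 123, 136 and 106 CPM in sinc and 154, 149 and 118 CPM in si. PSMB9, which replaces PSMB6, read 47.8, 49.5 and 35.9 CPM in sinc and 62.7, 61.3 and 40.0 CPM in si. PSMB10, which replaces PSMB7, read 20.9, 19.4 and 19.8 CPM in sinc and 25.2, 25.4 and 17.8 CPM in si. In each of the 3 genes the groups overlapped because si replicate 3 was low. PSME1 and PSME2, the subunits of the interferon-inducible activator, had the same shape. PSME1 read 163, 170 and 145 CPM in sinc and 209, 198 and 163 CPM in si. PSME2 read 144, 162 and 130 CPM in sinc and 196, 185 and 146 CPM in si.

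Replicate 3 was thus the lowest of its group for PSMB8, PSMB9, PSME1 and PSME2 in both groups, and for PSMB10 in si. NLRC5, an activator of MHC class I genes, read 38.2 and 46.1 CPM in replicate 3 of sinc and si, each the lowest of its group. The same held for IRF1, an interferon-induced transcription factor, at 70.5 and 84.9 CPM. TAP1, the peptide transporter gene, read 87.0 and 80.5 CPM in replicate 3 and between 112 and 122 CPM in the other libraries. The labels give no pairing of same-numbered libraries.

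Log2 fold changes for PSMB8, PSMB9, PSMB10, PSME1 and PSME2 were 0.20, 0.30, 0.19, 0.25 and 0.27 (edgeR adjusted p between 0.15 and 0.43). With the replicate number as a block, the standard error was 0.084 in place of 0.19 for PSMB9 and stayed at 0.14 for PSMB10. None of the 5 passed in that fit (edgeR adjusted p between 0.11 and 0.49). Without si replicate 3 PSME1 passed, at 0.34 (edgeR adjusted p = 0.044), and the other 4 did not. Without replicate 3 of both groups, an alternative chosen after seeing the data, none of the 5 passed, and PSMB9 stood at 0.34 (edgeR adjusted p = 0.068). Per kilobase of transcript, PSMB8 stood at 0.769 ± 0.064 of PSMB5 in sinc and 0.753 ± 0.107 in si (SD, n = 3). PSMB9 stood at 0.354 ± 0.056 of PSMB6 in sinc and 0.366 ± 0.073 in si. PSMB10 reached only 0.0598 ± 0.0039 of PSMB7 in sinc and 0.0594 ± 0.0088 in si. These ratios of immunoproteasome to constitutive subunit differed between groups by less than the spread within them. Their size depends on the transcript length used. With the union of all exons, PSMB8 and PSMB5 stood at 40.5 and 103 CPM per kb in sinc. On that scale PSMB9 and PSMB6 stood at 14.5 and 94.4, and PSMB10 and PSMB7 at 10.8 and 151. PSMB8 and PSMB9 lie on opposite strands and share 139 exon bases, so some of their counts could be exchanged where strand was not used. On the same strand, PSMB10 shares 644 exon bases with AC040162.1, and PSMB9 shares 174 with PSMB8-AS1. With the whole counts of exon-sharing rows added, PSMB10 stood at 0.24 and PSMB9 at 0.32 on the log2 scale (edgeR adjusted p = 0.25 and 0.28).

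**Figure D4:**
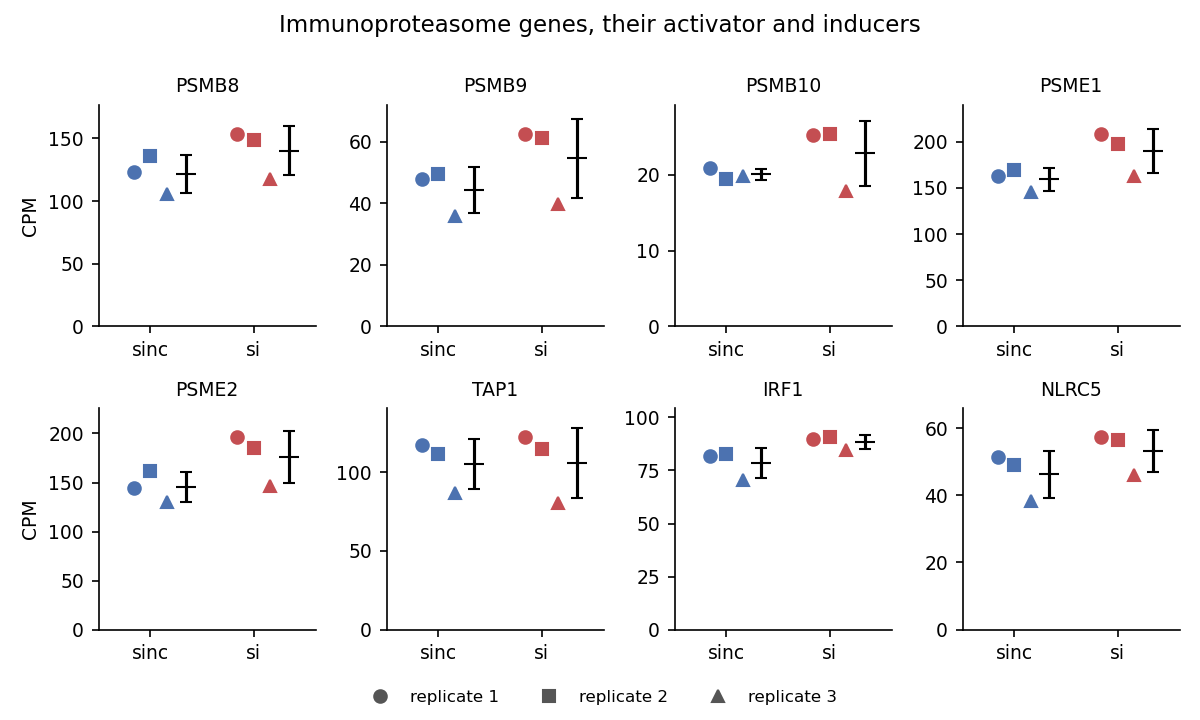
CPM per library for the immunoproteasome subunits, the activator subunits PSME1 and PSME2, and TAP1, IRF1 and NLRC5; symbols mark the replicate number, bars the mean ± SD of 3 libraries. The triangle, replicate 3, is the lowest point of both groups in each panel except PSMB10, where it is lowest in si only.

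The promoters of the members were searched for letters bound by interferon-regulated factors. Whether such letters bear on how PSMB8, PSMB9, PSMB10, PSME1 and PSME2 varied among libraries was not tested. The window ran from 250 bases before to 50 after the RefSeq start (GRCh38.p14), and 40 of 46 members had one. The core of the interferon-stimulated response element, searched on both strands as GAAA, then any 2 bases, then GAAA, occurred in 6 of the 40 (15.0%), against 3.65% of 27305 promoters. The 6 were PSMA4, PSMB4, PSMB10, PSME1, PSME2 and PSMG4. The last 4 held the same 10 letters, GAAAGCGAAA, in PSME1 on the other strand. In PSMB8 and PSMB9 these letters are not in the window. The promoters of PSMB10 (chr16:67936801-67937100, minus strand), PSME1 (chr14:24135944-24136243, plus strand) and PSME2 (chr14:24146561-24146860, minus strand) follow, each on its own gene's strand, with the match in capitals. PSMB9 (chr6:32853942-32854241, plus strand) is given for comparison.
PSMB10 promoter: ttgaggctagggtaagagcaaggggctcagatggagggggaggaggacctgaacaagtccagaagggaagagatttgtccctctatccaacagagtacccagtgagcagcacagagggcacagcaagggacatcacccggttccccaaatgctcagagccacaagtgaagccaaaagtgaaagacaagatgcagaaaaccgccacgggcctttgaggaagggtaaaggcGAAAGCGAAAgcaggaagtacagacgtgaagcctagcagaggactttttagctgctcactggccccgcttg
PSME1 promoter: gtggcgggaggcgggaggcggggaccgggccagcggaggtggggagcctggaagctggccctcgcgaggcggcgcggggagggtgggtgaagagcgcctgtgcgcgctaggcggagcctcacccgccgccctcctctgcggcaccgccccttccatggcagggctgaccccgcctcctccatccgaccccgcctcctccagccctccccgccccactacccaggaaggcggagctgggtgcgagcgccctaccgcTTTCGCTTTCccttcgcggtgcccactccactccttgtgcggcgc
PSME2 promoter: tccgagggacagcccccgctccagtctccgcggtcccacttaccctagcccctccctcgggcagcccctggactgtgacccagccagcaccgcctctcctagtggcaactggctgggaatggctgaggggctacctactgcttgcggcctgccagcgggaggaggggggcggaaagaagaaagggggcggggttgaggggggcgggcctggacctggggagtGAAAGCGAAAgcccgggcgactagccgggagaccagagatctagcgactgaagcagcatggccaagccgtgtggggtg
PSMB9 promoter: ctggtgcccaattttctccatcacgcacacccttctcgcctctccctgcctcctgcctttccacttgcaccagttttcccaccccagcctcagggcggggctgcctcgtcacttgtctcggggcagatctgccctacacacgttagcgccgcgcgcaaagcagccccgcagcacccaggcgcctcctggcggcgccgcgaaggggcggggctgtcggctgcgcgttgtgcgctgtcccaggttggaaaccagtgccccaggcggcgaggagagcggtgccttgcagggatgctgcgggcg

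The match started 21 bases before the gene start in PSMB10, 28 before it in PSME2 and 33 before it in PSMG4, and fell just after the start in PSME1. PSMG4 carries the same letters but read only 7.32 to 10.6 CPM over the 6 libraries. As for PSMB10, replicate 3 was its lowest library in si but not in sinc. Of the other motifs searched, TTCNNNGAA, the core of the gamma-activated site, occurred in 4 of the 40 member promoters and 7.88% of all. The carriers were PSMA2, PSMC4, PSMD3 and PSME3, so none of PSMB8, PSMB9, PSMB10, PSME1 and PSME2 held it. TGACNNNGC, the core of the antioxidant response element bound by NFE2L1 and NFE2L2, occurred in 13 of the 40 (32.5%), against 13.6% of all promoters. Among the members that passed the test, PSMC4, which fell, and PSMD9, which rose, held it. PSMA6, PSMB5, PSMC3 and PSMD8, which rose, did not. Whether these letters bear on any fold change was not tested. CCAAT occurred in 18 of the 40, against 35.7% of all. Each was searched on both strands, and matches of different motifs may overlap. These shares describe letters, not binding.

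The ATPases of the cap base moved apart from one another. PSMC3 rose and PSMC4 fell, while the other 4 of the 6 had negative fold changes that did not pass. PSMC3 (chr11:47418769-47426473, minus strand) read 291, 326 and 310 CPM in sinc and 384, 385 and 373 CPM in si. PSMC4 (chr19:39971005-39981441, plus strand) read 147, 158 and 155 CPM in sinc and 132, 116 and 120 CPM in si. Neither gene had overlapping groups. The log2 fold change was 0.30 for PSMC3 (SE 0.060, edgeR adjusted p = 0.024) and -0.32 for PSMC4 (SE 0.067, edgeR adjusted p = 0.027).

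Both proteins sit in the same hexameric ring, in equal numbers, and their annotated transcripts are 1580 and 1591 bases long. The ratio of PSMC3 to PSMC4 per kilobase was 1.99, 2.07 and 2.01 in sinc. In si it was 2.94, 3.34 and 3.13. The pair was chosen after its values were seen, so no test is given for the ratio; unlike single CPM values, it does not depend on how the libraries were scaled. PSMC5 read 226, 240 and 239 CPM in sinc and 216, 203 and 208 CPM in si, without overlap (-0.17 on the log2 scale, edgeR adjusted p = 0.093). PSMC6 stood at -0.22 with overlapping libraries (edgeR adjusted p = 0.17), and PSMC1 and PSMC2 at -0.051 and -0.059. PSMC1 shares 4671 exon bases with NRDE2 on the other strand and has a pseudogene copy, PSMC1P1, counted 1032 to 1309 times per library. Its own count is therefore uncertain. With the pseudogene copies added to PSMC1, its log2 fold change was -0.049 (edgeR adjusted p = 0.71). PSMC5 likewise shares 874 exon bases with FTSJ3 on the other strand, which was counted 5224 to 8020 times per library. The libraries were strand-specific, but how overlapping genes were counted is not given in the sources used here.

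Among the 11 other subunits of the cap, PSMD8 rose and none fell. PSMD8, a lid subunit (chr19:38374536-38383824, plus strand), read 209, 219 and 200 CPM in sinc and 252, 257 and 256 CPM in si. The groups were well apart, with a log2 fold change of 0.28 (SE 0.056, edgeR adjusted p = 0.023). PSMD4, a ubiquitin receptor, was higher in every si library at 0.17 (edgeR adjusted p = 0.086), and so was PSMD7, a lid subunit, at 0.16 (edgeR adjusted p = 0.21). PSMD12 and PSMD13, also of the lid, were lower in every si library, at -0.19 and -0.12 (edgeR adjusted p = 0.12 and 0.23). PSMD14, the enzyme that cuts ubiquitin from the substrate, stood at 0.11, and PSMD1, PSMD2, PSMD3, PSMD6 and PSMD11 between -0.17 and 0.096, all with overlapping libraries. Without si replicate 3, PSMD1, a scaffold of the base, passed at -0.34 (edgeR adjusted p = 0.033); that library read 130 CPM against 102 and 92.2 in the other si libraries. Over the 17 cap subunits, 2 rose and 1 fell, beside 4.14% and 6.00% of all genes, and the median log2 fold change was -0.051.

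Of the cap chaperones, which hold ATPase pairs until the ring closes, PSMD9 rose. PSMD9 (chr12:121888731-121918297, plus strand) read 69.0, 79.3 and 72.8 CPM in sinc and 89.8, 91.8 and 85.7 CPM in si. The groups did not overlap (log2 fold change 0.27, SE 0.071), yet the adjusted p of 0.04996 in edgeR lay at the threshold. The call ended with RLE or total count scaling and with any library left out. It also ended when the whole count of WDR66, a same-strand row that shares 436 exon bases with PSMD9, was added (edgeR adjusted p = 0.076). WDR66 was counted 1905 to 2404 times per library, with a log2 fold change of 0.11, so the sum cannot separate shared reads from its own. PSMD5 and PSMD10 stood at -0.050 and -0.013. The 4 chaperones that build the core from its alpha ring, PSMG1 to PSMG4, had none that passed. PSMG3 read 24.3, 26.3 and 28.0 CPM in sinc and 33.8, 31.3 and 31.1 CPM in si, without overlap (0.29 on the log2 scale, edgeR adjusted p = 0.064).

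None of the 4 activators passed, but PSME4 had the largest fold change of the 46 members. PSME4, the single-chain activator found in the nucleus (chr2:53864067-53970840, minus strand), read 36.5, 27.2 and 28.6 CPM in sinc and 15.1, 23.9 and 21.0 CPM in si. Its si libraries all lay below its sinc libraries, with a log2 fold change of -0.62 (SE 0.18, edgeR adjusted p = 0.069). It passed without si replicate 2 (edgeR adjusted p = 0.024) and in DESeq2 (adjusted p = 0.0043). With transcript length and GC content fitted out it stood at -0.27 (edgeR adjusted p = 0.25), a smaller fold change than that of PSMC4. PSME3, the nuclear activator that does not need ubiquitin or ATP, stood at 0.073, and PSMF1, named as an inhibitor of the core, at -0.0052, both with overlapping libraries.

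With 1 library left out, the calls of these 6 members moved more than their fold changes. Without sinc replicate 1 none of the 46 members passed, and 31 genes of the whole table were called higher. The 6 called members then stood at 0.50 (PSMA6), 0.23 (PSMB5), 0.26 (PSMC3), -0.36 (PSMC4), 0.28 (PSMD8) and 0.23 (PSMD9) on the log2 scale. With sinc replicate 2, sinc replicate 3 or si replicate 1 left out, PSMA6 was the 1 member that passed, with 107, 86 and 55 genes called higher in the whole table against 645 with all libraries. Without si replicate 2 or si replicate 3, PSMA6, PSMC3, PSMC4 and PSMD8 still passed. The signs of all 6 calls were the same in each of the 19 alternative settings.

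Transcript length ran alongside these fold changes. Genes were put into 4 bins of equal size by annotated transcript length. The median log2 fold change over all genes was 0.15 in the bin of the shortest and -0.28 in the bin of the longest. Of the 46 members, 29 were in the shortest bin, where their median was 0.17. PSME4, with a transcript of 7099 bases, was the only member in the longest. With length and GC content fitted out of the counts, over 12829 genes with a coding transcript, the median of the 14 core subunits went from 0.17 to 0.0033 and that of the beta ring from 0.20 to -0.036. The median over all genes in that fit was -0.051. PSMB5, PSMC3 and PSMD8 then stood at 0.023, 0.067 and 0.036 (edgeR adjusted p between 0.62 and 0.89), and PSMD9 at 0.18 (edgeR adjusted p = 0.30), so these 4 calls ended. PSMC4 stood at -0.55 (edgeR adjusted p = 0.0015) and PSMA6 at 0.47 (edgeR adjusted p = 0.0095), and both still passed. PSMC5 and PSMD13 fell in that fit (-0.36 and -0.30, edgeR adjusted p = 0.014 and 0.041), and PSMA4 rose (0.44, edgeR adjusted p = 0.033). The length used was that of the transcript with the longest coding sequence, 4411 bases for PSMA4. Other lengths were not tried in that fit. The PSMC3 and PSMC4 transcripts are close in length and in GC content (56.2% and 55.2%), so the correction could change the gap between them little. It therefore tells nothing about that gap. Whether the dependence on length arose in the cells or in the libraries was not tested.

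**Figure D5:**
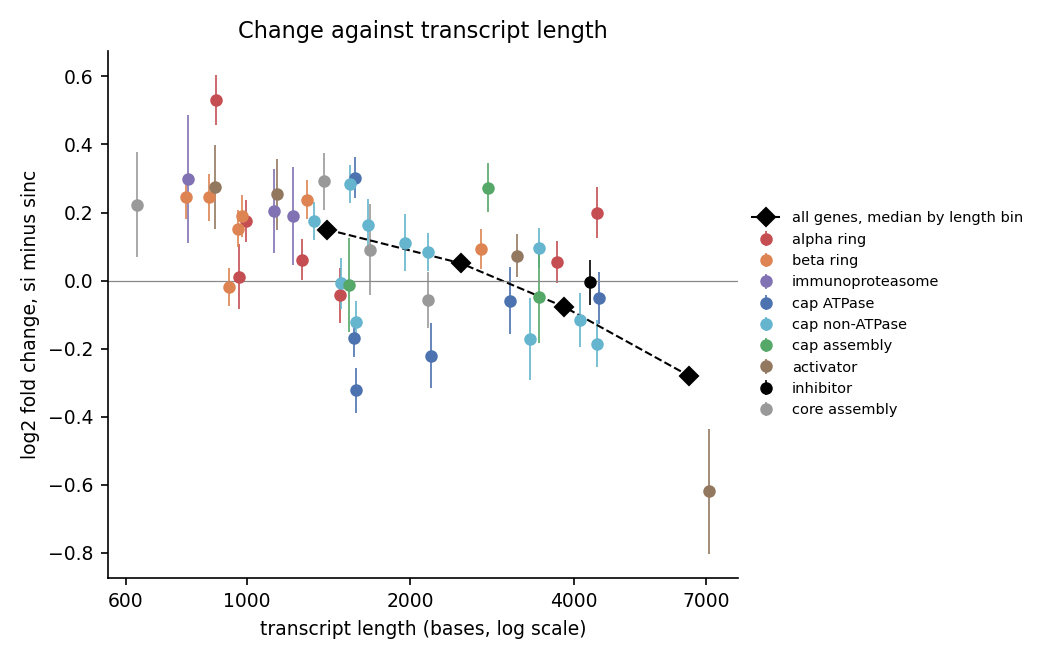
Log2 fold change of the 46 members against annotated transcript length (log axis), coloured by role with standard errors, and the median of all genes in each of 4 length bins (black diamonds). The diamonds descend from 0.15 to -0.28, and most beta, immunoproteasome and PSME1 and PSME2 points lie at the short end above 0, while PSMC4 lies below the diamonds.

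Levels per kilobase of transcript differed widely between members, also among the core subunits, which each core holds in equal numbers. PSMD2, a scaffold of the base that docks ubiquitin shuttles, was the highest at 768 ± 32.1 CPM per kb in sinc and 821 ± 40.4 in si (SD, n = 3), and ranked 108 of 12829 genes. The next highest members, PSMA7, PSMB7 and PSMB4, stood between 291 and 296 CPM per kb over the 6 libraries. In sinc these 3 read 278 ± 17.2, 275 ± 11.3 and 276 ± 7.28 CPM per kb and did not differ beyond their spread. PSMA4 stood lowest of the core subunits on this scale, at 24.7 ± 1.86 CPM per kb in sinc, with an annotated transcript of 4411 bases. PSMC6 stood at 15.3 ± 1.06, PSMD12 at 12.2 ± 0.491 and PSME4 at 4.34 ± 0.705 CPM per kb in sinc. The length is that of the transcript with the longest coding sequence; with the union of all exons the median core level in sinc was 76.9 in place of 164 CPM per kb. On that scale PSMA3 and PSMA4 stood at 15.4 and 15.6 CPM per kb in sinc, and PSMB3 and PSMA7 at 159 and 158, so the order within the core depends on the length used.

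Of 42 other genes of the pathway, 41 were tested, and 2 rose while 4 fell, beside 4.14% and 6.00% of all genes, so the number that rose is near the background. Their median log2 fold change was 0.011. The proteasome-binding PITHD1 rose by 0.36 on the log2 scale and KEAP1, which hands NFE2L2 to a ubiquitin ligase, by 0.27 (edgeR adjusted p = 0.040 and 0.039). NGLY1, the glycanase that NFE2L1 needs to become active, read 16.3, 16.9 and 16.4 CPM in sinc and 10.97, 8.12 and 9.74 CPM in si. It fell by 0.78 on the log2 scale (edgeR adjusted p = 0.017), with no overlap. ECPAS, an adaptor and scaffold of the proteasome listed as KIAA0368, fell by 0.50, the ligase UBE3C by 0.34 and FAF2, a partner of the unfolding ATPase VCP, by 0.33 (edgeR adjusted p = 0.011, 0.035 and 0.023).

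NFE2L1 is the transcription factor that raises proteasome genes together when proteasome activity falls. Its own transcript read 349 ± 16.7 CPM in sinc and 368 ± 25.9 in si, with overlap (0.078 on the log2 scale, edgeR adjusted p = 0.51). DDI2, the protease that cuts NFE2L1 free, read 23.6, 18.6 and 19.02 CPM in sinc and 9.37, 15.4 and 11.7 CPM in si, all below sinc (-0.75 on the log2 scale, edgeR adjusted p = 0.051). POMP, the chaperone that matures the core, stood at 0.11 (edgeR adjusted p = 0.35). With length and GC fitted out, NGLY1 alone of these 6 called pathway genes still passed (-0.73, edgeR adjusted p = 0.015).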

How the data were processed

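Per the labels' protocols, poly(A) RNA was made into strand-specific libraries with dUTP. The authors deposited whole-number counts per gene, made with CASAVA and StringTie (versions not stated), per the submitters' processing notes. Aligner, genome build and the counting of overlapping genes: not given in the sources used here. Counts are of reads, not of independent molecules, so the precision stated covers these libraries only.

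Columns were matched to samples by name. Genes were kept by filterByExpr (minimum count 10), scaled by TMM and tested, 3 sinc against 3 si libraries, with edgeR 4.0.16 (R 4.3.3; glmQLFit, glmQLFTest, group as the only term, two-sided, Benjamini-Hochberg, threshold 0.05). Standard errors were taken as the size of the log2 fold change divided by the root of F. CPM used TMM factors. The test was checked on simulated data. Any member by the symbol rule could be named; some genes of the pathway list are not reported here. The members, the lists and the alternatives were chosen with earlier results of these data known. Alternatives were DESeq2 1.42.0, limma 3.58.1 (voom), scaling by RLE, by the upper quartile or by total count, other count filters, a replicate block, length and GC splines, each library left out and, chosen after seeing the data, summed exon-sharing rows, summed pseudogene copies and no replicate 3. Positions are from GENCODE 29 (GRCh38). Promoters are RefSeq's (GRCh38.p14).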

Additional observations from a re-analysis of the deposited data

How the results depend on the processing

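Counts of genes past the threshold moved more than single fold changes did. Over all genes, 645 were higher and 934 lower; upper-quartile scaling gave 1005 higher, DESeq2 1158 and 1648, no count filter 163 higher, and the length and GC correction 183 and 601. Members, 5 higher and 1 lower, became 8 higher with upper-quartile scaling, 8 and 2 with DESeq2, 1 higher with no filter, 2 and 3 with the length and GC correction, 8 higher over genes with a coding transcript, 3 higher with exon-sharing rows added and 2 lower with total count scaling. The pathway genes, 2 higher and 4 lower, became 5 and 7 with DESeq2, 4 higher with upper-quartile scaling and over genes with a coding transcript, 1 higher with total count scaling, 0 higher with no filter, and 0 and 1 with the length and GC correction. That fit holds 12829 genes with a coding transcript; over the same genes without the correction 843 were higher and 1018 lower, and the member median was 0.10, against -0.0017 with it and 0.091 over all genes tested. The core level per kilobase was 76.9 with union exon lengths. Why these values moved was not tested.

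Leaving out one library at a time gave 31 to 781 genes higher and 172 to 1782 lower. Members ranged from 0 to 5 higher and from 0 to 2 lower, and pathway genes from 0 to 2 and from 0 to 7. Without replicate 3 of both groups the numbers higher and lower were 118 and 298 genes, 1 and 0 members, and 0 and 1 pathway genes. The labels tie same-numbered libraries by nothing but the number. Their deviations from the group means correlated at -0.18, -0.035 and 0.15 over all genes and at -0.34, -0.045 and 0.47 over the members, and not every library correlated best with its own number. With the replicate number as a block 102 genes were higher and 336 lower, PSMA6 was the 1 member higher and 0 were lower, and 0 pathway genes were higher and 1 lower. SOGA1 kept its call in all 19 alternatives. The scarcest member, PSMG4, had 272 to 426 counts per library and a standard error of 0.16 on the log2 scale, which limits what could be seen for it.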

Other observations

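PSMD2 stood apart from the other cap subunits in level. Over the 6 libraries it read 795 CPM per kb, while the other 16 cap subunits had a median of 56.3 and a highest value of 218, for PSMC3. The 20 ranked genes within 500 kb of PSMD2 had a median of 19.4 CPM per kb against 6.34 over all genes ranked. In the top 10% of levels were 5 of these 20 neighbours and 8 of the other 16 cap subunits. The highest neighbour was AP2M1, an adaptor subunit of clathrin-coated vesicles, at 988 CPM per kb. No other window was compared, and whether position had a part in the level of PSMD2 was not tested.

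The letters TGAAGTA, chosen with earlier results of these data known, were counted in 3 prime UTRs. They occurred in 4 of 46 members (8.70%), against 11.6% of 12578 genes. These shares were not adjusted for length. The median annotated transcript was 1579.5 bases long in the members and 3078 in all genes tested with a coding transcript. The 4 members with the letters were PSMB1, PSMD12, PSMD13 and PSMF1.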
